A study of Mus musculus with 10 samples.

Results

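The mitochondrial ribosomal protein genes are the nuclear genes for the proteins of the ribosome inside mitochondria. They were chosen by symbol, as the rows of the count table named Mrpl (large subunit) or Mrps (small subunit) followed by a number and at most 1 letter. This gave 78 of the 55487 genes in the table, 49 of the large subunit and 29 of the small subunit. RNA of whole ovaries was sequenced from C57BL/6J mice, with 10 libraries in all, each called an ovary here. The Control group comprised 4 ovaries of mice aged 8 weeks and the Aged group 3 ovaries of mice labelled as 11 months old (the study's methods give a younger age at purchase). The Aged+CF group comprised 3 ovaries of mice with the same age label that had received CEFFE, a cell-free extract of fat tissue, as 200 μL at a protein concentration of 3 μg/μL. By the study's methods it was injected into the tail vein every 2 days for 2 weeks, while Control and Aged mice received saline at an equal volume. All mice, those of the Control group included, had 10 IU of PMSG, a gonadotropin that drives follicle growth, 48 h before collection, so no ovary was unstimulated. The study asked what changes in the ovary with age and which of these changes differ after CEFFE.

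The mitochondrial ribosome translates the handful of proteins encoded by mitochondrial DNA, which are all core subunits of the respiratory chain and the ATP synthase. Its RNAs come from mitochondrial DNA, while its proteins are made in the cytosol from nuclear genes and imported. Many of them are homologues of bacterial ribosomal proteins and others are found only in mitochondria. The oocyte holds a very large stock of mitochondria, steroid-making luteal and theca cells use mitochondria for the first step of steroid synthesis, and inherited variants in several genes of mitochondrial translation are known to go with early loss of ovarian function.

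All 78 genes were protein-coding, lay on 17 chromosomes and numbered 11 on chromosome 11. Promoter windows of 300 bases, from 250 before to 50 after the transcription start, were taken from RefSeq on GRCm38.p6, in which 69 of the 78 genes were found with 75 windows. They are shown because expression of mitochondrial genes encoded in the nucleus is classically tied to a few short promoter elements. The letters searched, on both strands, were GCGC followed by any 2 bases and GCGC again (the core of the NRF1 site), CCGGAAG (ETS factors, which include GABP), AAGATGG (YY1) and ACTACAA. None of these contains another. CCGGAAG was present in 34.7% of the windows of mitochondrial ribosomal protein genes and 8.86% of all 32851 windows, the NRF1 core in 18.7% and 6.23%, AAGATGG in 17.3% and 6.34%, and ACTACAA in 6.67% and 3.24%. At least 1 of the 4 motifs was found in 62.7% of the windows, against 21.8% of all windows. The windows also held more G and C, with a median of 58.7% against 52.7%, and a median of 21 CG dinucleotides against 7. The part of this composition in the motif shares was not tested. The sequences below are those of Mrpl44, Mrpl16 and Mrps7, whose levels are described in most detail, of the paralogs Mrps18a, Mrps18b and Mrps18c, and of Mrps21, the gene that varied most among ovaries. Capitals mark the motifs, those on the opposite strand appearing as CTTCCGG or TTGTAGT.
Mrpl44, chr1:79775768-79776067, plus strand: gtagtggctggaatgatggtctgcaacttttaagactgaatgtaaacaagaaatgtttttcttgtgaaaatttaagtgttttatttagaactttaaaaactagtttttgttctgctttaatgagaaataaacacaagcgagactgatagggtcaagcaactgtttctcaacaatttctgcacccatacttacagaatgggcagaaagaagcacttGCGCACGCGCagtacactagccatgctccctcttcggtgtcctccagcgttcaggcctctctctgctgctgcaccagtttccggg
Mrpl16, chr19:11770165-11770464, plus strand: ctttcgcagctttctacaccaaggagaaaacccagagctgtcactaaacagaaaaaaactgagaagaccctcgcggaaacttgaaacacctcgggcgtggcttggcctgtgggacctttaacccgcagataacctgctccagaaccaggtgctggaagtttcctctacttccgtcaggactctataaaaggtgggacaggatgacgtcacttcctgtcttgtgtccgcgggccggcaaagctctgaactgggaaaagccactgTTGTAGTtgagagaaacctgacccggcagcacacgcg
Mrps7, chr11:115603890-115604189, plus strand: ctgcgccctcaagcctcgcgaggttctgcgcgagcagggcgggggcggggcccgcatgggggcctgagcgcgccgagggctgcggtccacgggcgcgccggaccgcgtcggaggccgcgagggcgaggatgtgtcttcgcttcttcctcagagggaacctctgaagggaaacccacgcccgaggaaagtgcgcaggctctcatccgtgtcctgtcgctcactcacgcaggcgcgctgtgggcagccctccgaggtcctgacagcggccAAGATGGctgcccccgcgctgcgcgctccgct
Mrps18a, chr17:46110754-46111053, plus strand: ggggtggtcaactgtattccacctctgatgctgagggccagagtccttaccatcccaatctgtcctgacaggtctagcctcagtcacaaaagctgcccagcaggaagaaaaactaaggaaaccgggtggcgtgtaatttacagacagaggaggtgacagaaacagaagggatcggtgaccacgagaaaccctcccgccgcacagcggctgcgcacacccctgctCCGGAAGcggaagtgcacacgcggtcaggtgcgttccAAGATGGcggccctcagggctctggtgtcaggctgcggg
Mrps18b, chr17:35916391-35916690, minus strand: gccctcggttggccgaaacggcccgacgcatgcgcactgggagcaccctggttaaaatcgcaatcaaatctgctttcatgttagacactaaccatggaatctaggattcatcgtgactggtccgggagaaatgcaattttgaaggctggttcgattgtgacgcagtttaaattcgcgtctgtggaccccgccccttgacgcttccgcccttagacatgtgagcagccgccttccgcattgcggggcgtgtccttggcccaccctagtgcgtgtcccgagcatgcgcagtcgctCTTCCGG
Mrps18c, chr5:100798509-100798808, plus strand: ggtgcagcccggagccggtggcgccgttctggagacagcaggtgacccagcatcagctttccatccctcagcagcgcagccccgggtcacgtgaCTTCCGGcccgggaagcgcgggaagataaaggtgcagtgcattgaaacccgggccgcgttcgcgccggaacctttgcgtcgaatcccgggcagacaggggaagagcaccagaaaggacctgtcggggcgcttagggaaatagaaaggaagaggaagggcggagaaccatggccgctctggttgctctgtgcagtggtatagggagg
Mrps21, chr3:95871465-95871764, minus strand: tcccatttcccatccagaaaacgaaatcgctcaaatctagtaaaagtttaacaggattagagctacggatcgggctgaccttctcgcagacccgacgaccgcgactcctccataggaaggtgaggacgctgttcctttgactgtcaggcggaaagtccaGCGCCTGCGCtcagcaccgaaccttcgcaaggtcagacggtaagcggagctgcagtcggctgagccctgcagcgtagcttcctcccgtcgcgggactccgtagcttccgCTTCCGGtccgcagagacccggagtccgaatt
The window of Mrpl44 held the NRF1 motif, that of Mrpl16 ACTACAA and that of Mrps7 AAGATGG. The 3 Mrps18 paralogs each held CCGGAAG, although they lie apart in the genome, on chromosome 17 (Mrps18a and Mrps18b) and chromosome 5 (Mrps18c), and Mrps18a held AAGATGG as well. Mrps21 held both the NRF1 and the ETS motif.

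Every mitochondrial ribosomal protein gene was expressed in every ovary, and all 78 passed the filter on low counts, as did 18956 genes in all. Between 15761789 and 21318254 reads were counted per ovary, and the 78 genes together took 0.243% to 0.329% of them. Levels of different genes were compared per length, as the deposited FPKM averaged over the 10 ovaries. The median level was 10.3 FPKM, with 11.2 for the large and 8.18 for the small subunit, against 3.41 FPKM over all genes tested. Although the products are parts of 1 particle, levels ranged from 1.61 to 66.9 FPKM. Mrpl34, whose product is a homologue of bacterial L34, had the highest level of the large subunit at 64.1 ± 5.95 FPKM in Control (SD, n = 4), followed by Mrpl54 at 31.7 ± 3.37 FPKM. Mrpl12, part of the stalk that recruits translation factors and also known to bind the mitochondrial RNA polymerase, had 32.1 ± 2.29 FPKM in Control, so its level was not distinguishable from that of Mrpl54. The lowest levels of the large subunit in Control were those of Mrpl15 (1.8 ± 0.101 FPKM), Mrpl48 (2.41 ± 0.361) and Mrpl23 (2.43 ± 0.22), and the last 2 overlapped from ovary to ovary. Of the small subunit, Mrps28 (27.7 ± 1.71 FPKM in Control), Mrps7 (23.1 ± 1.1) and Mrps27 (20.3 ± 1.57) were highest, and Mrps17 (2.15 ± 0.146), Mrps10 (2.65 ± 0.329) and Mrps35 (3.45 ± 0.279) lowest. The length behind an FPKM was 1 to 2.73 times the exon length of the gene (median 1.4). With counts scaled to library size (CPM) per kb of exon instead, the order across the 78 genes was much the same (Spearman rho = 0.937, a description over genes of the same libraries), and only 1 gene moved by more than 20 places. The top ranks did change. Mrps21 (41.2 CPM per kb), Mrps12 (31.8) and Mrps28 (29.8) then lay above Mrps7 (28.6) and Mrps27 (20.7), and Mrpl52 (44.2) above Mrpl54 (42.8). Even by FPKM over the 10 ovaries, Mrps27 (18.9) was nearly equal to Mrps15 and Mrps21 (18.8 each). The table also has 6 rows for pseudogenes of these genes, which the rule leaves out. Mrpl23-ps1 had 382 to 596 reads per ovary, more than Mrpl23 itself in each of them, and Mrps36, Mrpl48 and Mrpl27 have such copies too, so the levels of these 4 genes are uncertain.

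Across ovaries, the main feature in the genes of both subunits was the high level of 1 ovary of the Aged group. The summed level of the 49 large subunit genes was 1626, 1785, 1638 and 1746 CPM in Control replicates 31, 32, 33 and 34. It was 1781, 2429 and 1556 CPM in Aged replicates 31, 33 and 34, and 1584, 1700 and 1679 CPM in Aged+CF replicates 30, 32 and 34. The Aged group thus held both the highest and the lowest ovary, and its range enclosed those of the other groups. The 29 small subunit genes gave the same order within the Aged group, with 917, 1045, 914 and 1044 CPM in the Control ovaries, 1006, 1358 and 871 CPM in Aged, and 917, 925 and 955 CPM after CEFFE. Aged replicate 33 was the highest of the 10 ovaries for 65 of the 78 genes (83.3%), against 21.1% of all genes tested. This count uses CPM scaled by TMM, and the low TMM factor of this ovary (0.871, against 0.97 to 1.05 in the others) raises its CPM. Before TMM, the 78 genes took 0.329% of its counts, against 0.243% to 0.288% in the others. In the deposited FPKM, scaled by library totals, it was not the highest ovary for Mrpl10 or Mrpl13, for example. The count over the 78 genes was not made with library totals. Aged replicate 34 was the lowest for 23 of them (29.5%), against 16.3% of all genes. The coefficient of variation over the 10 ovaries was 7.02% to 54.5%, with a median of 16.2%, against 17.8% for all tested genes in the same range of mean CPM.

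**Figure D1:**
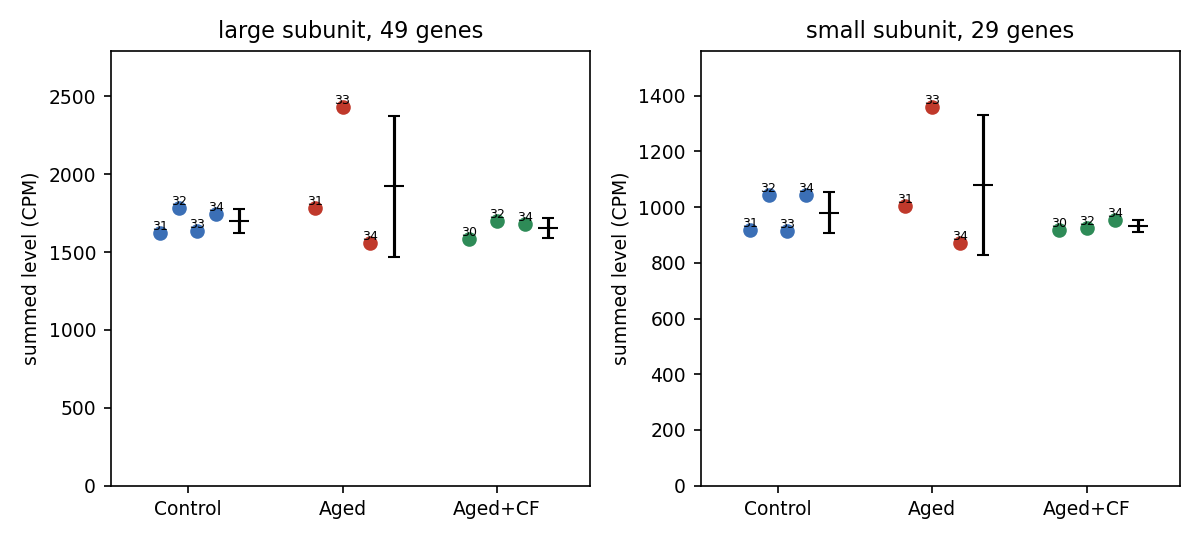
Summed level in CPM of the 49 large subunit genes (left) and the 29 small subunit genes (right) in each ovary, with the replicate number over each point and the mean ± SD at the side. Aged replicate 33, at 2429 and 1358 CPM, stands above the other 9 ovaries, and the Aged mean rests on it.

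**Figure D2:**
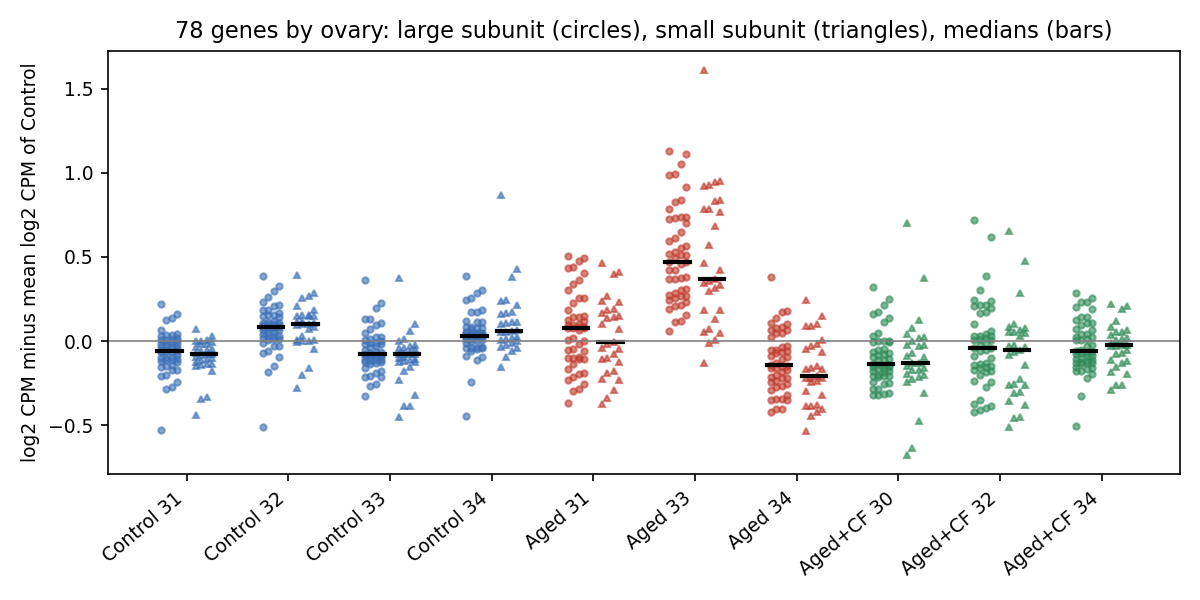
Level of each of the 78 genes in each ovary as log2 CPM minus the mean log2 CPM of the 4 Control ovaries, with circles for the large subunit, triangles for the small subunit and bars for medians. The medians of Aged replicate 33 lie at 0.47 and 0.37, and those of the other 9 ovaries between -0.2 and 0.1.

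In Aged vs Control, which asks what differs with age, the mitochondrial ribosomal protein genes tended to be higher in Aged, but none passed the test. At a Benjamini-Hochberg adjusted p under 0.05 in edgeR's quasi-likelihood test, fitted to all 10 ovaries over all genes, 0 of the 78 genes were called, while 15.4% of all genes tested passed. At an unadjusted p under 0.05 there were 11, all higher in Aged (8 large, 3 small), against 15.7% of all genes in that direction, so their share of 14.1% was no larger than the background. Mrpl41 and Mrpl53 passed a fold change of at least 1.5 at an unadjusted p under 0.05, the thresholds in the series' description, as did 18.2% of all genes. DESeq2's Wald test called 3 genes (Mrpl44, Mrps14 and Mrpl41), and 22.6% of all genes. limma's voom with quality weights called 5 (Mrpl44, Mrps14, Mrps7, Mrpl50 and Mrpl51), and 23% of all genes. All of these members were higher in Aged, in which direction the 2 tools called 11.8% and 11% of all genes. The median log2 fold change was 0.15 for the large and 0.13 for the small subunit, and 62 of the 78 values were above 0, against 49.9% of all genes. Over all genes the median was 0. With library totals in place of TMM factors, the medians were 0.01 and -0.02 and that of all genes -0.13, so the sign of the small subunit's median flipped while both stayed above the median of all genes. The groups' ranges did not overlap for 6 genes, all higher in Aged, against 11.8% of all genes in that direction.

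Mrpl44, a protein of the large subunit related to ribonuclease III that is needed for its assembly, had the smallest p. Its levels were 27, 25.2, 29.5 and 26.3 CPM in the 4 Control ovaries, 36.5, 37.9 and 29.6 CPM in Aged replicates 31, 33 and 34, and 29.7, 31.2 and 32.9 CPM in Aged+CF. The Aged and Control ranges only just separated, and every Aged+CF ovary lay above every Control ovary. The log2 fold change in Aged vs Control was 0.36 ± 0.11 (SE; edgeR adjusted p = 0.0542). Mrps14, the homologue of bacterial S14 in the head of the small subunit, had 29.7, 33, 27.7 and 29.1 CPM in Control and 39.7, 56.6 and 31.7 CPM in Aged, where replicate 34 lay inside the Control range. Its log2 fold change was 0.51 ± 0.17 (adjusted p = 0.0716, edgeR). Mrpl41, a mitochondria-specific protein of the large subunit also described as a pro-apoptotic factor, had 21.9, 27.1, 26.1 and 26 CPM in Control and 31.9, 55 and 27 CPM in Aged. Its Aged replicate 34 was at the top of the Control range, and its log2 fold change was 0.59 ± 0.21 (adjusted p = 0.0856, edgeR). Mrpl53, the gene with the lowest counts of the 78 and one whose exons overlap a gene model on each strand, had the largest log2 fold change, 0.68 ± 0.29, at 5.1 ± 0.853 CPM in Control and 8.2 ± 2.39 CPM in Aged (SD, adjusted p = 0.135, edgeR).

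The other genes with an unadjusted p under 0.05 were 4 homologues of bacterial proteins (Mrpl33, Mrps7, Mrpl20 and Mrpl16), Mrps18a, and 2 mitochondria-specific ones (Mrpl50 and Mrpl51). Their log2 fold changes were between 0.29 (Mrpl16) and 0.58 (Mrpl33), with edgeR adjusted p between 0.0982 and 0.155. Mrps7, the homologue of bacterial S7, had 52.9, 57.3, 50.2 and 51.4 CPM in Control and 69.6, 100 and 51.2 CPM in Aged. Aged replicate 33 had nearly double the Control level while Aged replicate 34 could not be told from Control. The 16 genes with a value below 0 in Aged vs Control were 11 of the small and 5 of the large subunit, none at an unadjusted p under 0.05. The most negative were Mrps30 at -0.23 ± 0.14, Mrps5 at -0.21 ± 0.1 and Mrps34 at -0.2 ± 0.23. Mrps5, the homologue of bacterial S5 at the entry of the mRNA channel, had 40.2, 49.4, 45.5 and 47.2 CPM in Control and 39.8, 41.6 and 37 CPM in Aged, so that only Control replicate 31 lay within the Aged range (adjusted p = 0.204, edgeR). With library totals in place of TMM it was the only one of the 78 genes called (log2 fold change -0.34, edgeR adjusted p = 0.0476), with 17.3% of all genes called.

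Sorted by origin, the 21 mitochondria-specific genes of the large subunit had a median log2 fold change of 0.22 in Aged vs Control and the 28 with bacterial homologues 0.1. For the small subunit the order was the other way, with 0.05 for the 14 mitochondria-specific genes and 0.22 for the 15 bacterial homologues. The quartiles of the 4 classes overlapped. They were 0.1 to 0.32 and 0.02 to 0.25 for the mitochondria-specific genes and the bacterial homologues of the large subunit, and -0.02 to 0.32 and -0.07 to 0.37 for those of the small subunit.

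**Figure D3:**
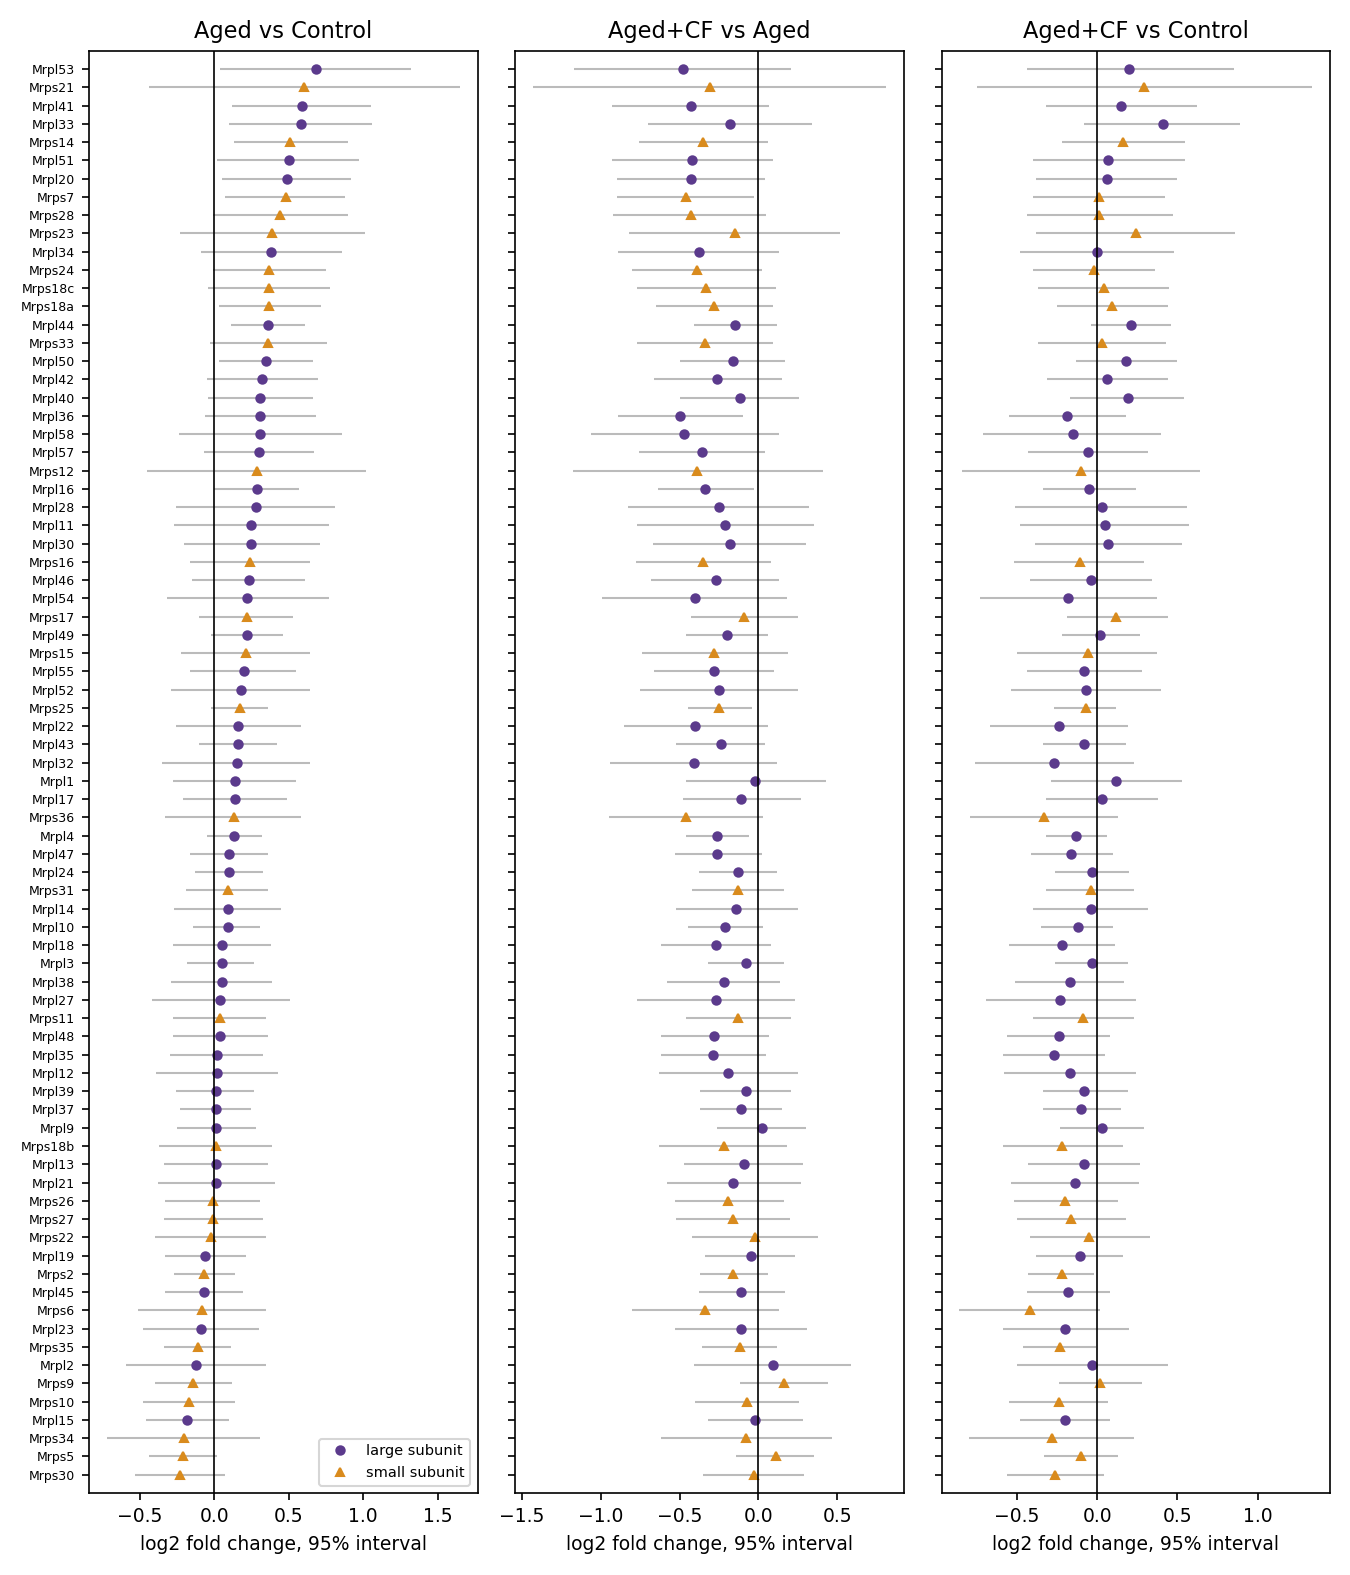
Log2 fold change with its 95% confidence interval for each of the 78 genes in the 3 comparisons, in the order of Aged vs Control, with circles for the large and triangles for the small subunit. Values lean to the right in Aged vs Control (62 above 0, 41 of them with library totals in place of TMM) and to the left in Aged+CF vs Aged (74 below 0), and most intervals include 0.

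These counts depended on which Aged ovaries were in the fit. Without Aged replicate 34, 18 of the 78 genes rose in Aged vs Control at an adjusted p under 0.05 in edgeR (12 large, 6 small), against 12.1% of all genes in that direction, and 34 genes were higher in Aged with no overlap, against 22.5%. The smallest adjusted p values were then those of Mrps7 (log2 fold change 0.72, adjusted p = 0.00698), Mrpl50 (0.55, adjusted p = 0.00736) and Mrpl51 (0.77, adjusted p = 0.00765). Without Aged replicate 33, edgeR called 0 of the 78 genes and 12% of all genes, and 6 had an unadjusted p under 0.05, 3 higher and 3 lower, against 29.2% of all genes. The medians were then 0.02 for the large and -0.08 for the small subunit, and 36 of the 78 values were above 0, against 53.6% of all genes. In both fits the Aged group had only 2 ovaries.

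Aged replicate 33 also differed from the other Aged ovaries in a way that followed gene length. The difference in log2 CPM between it and the mean of Aged replicates 31 and 34 was above 0 for 77 of the 78 genes, the exception being Mrps25, with a median of 0.52. These CPM are scaled by TMM, whose factor was lowest in this ovary (0.871), and the count was not made with library totals. For all genes the median was -0.01. The 9 mitochondrial ribosomal protein genes with under 1 kb of exon had a median difference of 0.78, the 22 of 1 to 2 kb 0.62, the 25 of 2 to 4 kb 0.51 and the 22 over 4 kb 0.33. All genes tested fell in the same order in these length classes, with medians of 0.41, 0.22, 0.05 and -0.12, below the medians of the mitochondrial ribosomal protein genes in each class. Across the 78 genes the correlation of the difference with log2 exon length was r = -0.553, and across all genes -0.204, as a description over genes of the same 3 libraries. The part of gene length, or of RNA quality, in the level of this ovary was not tested.

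**Figure D4:**
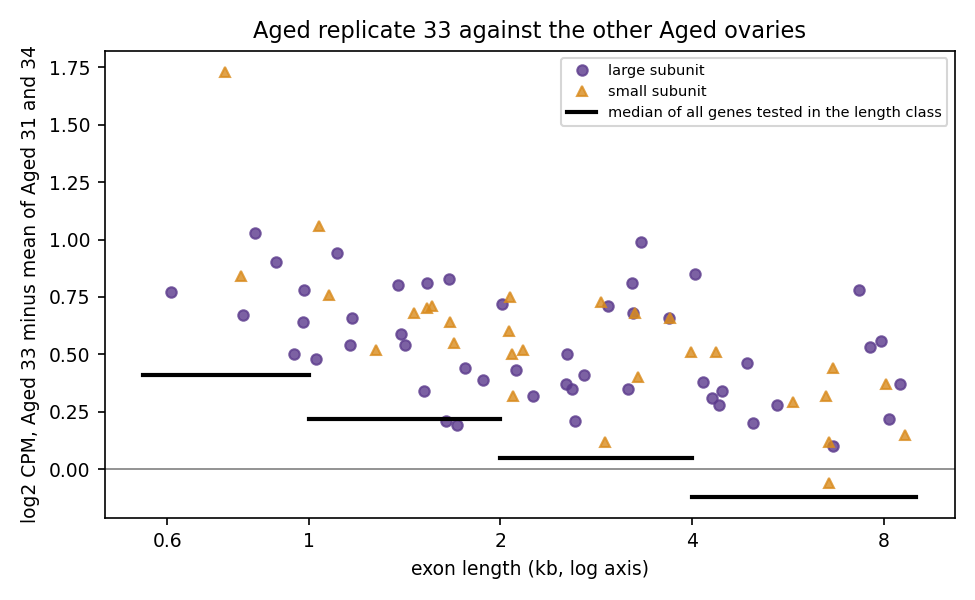
Difference in log2 CPM between Aged replicate 33 and the mean of Aged replicates 31 and 34 for each of the 78 genes against its exon length in kb on a log axis, with lines for the median of all genes tested in each of 4 length classes. Short genes lie highest, and 77 of the 78 points lie above 0.

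In Aged+CF vs Aged, which asks what differs after CEFFE, the genes tended to be lower in Aged+CF, again without passing the test. At an adjusted p under 0.05 edgeR called 0 of the 78 genes, and 0.00528% of all genes, which was 1 gene. DESeq2 and limma also called 0 of the 78, while they called 4.79% and 0.554% of all genes. At an unadjusted p under 0.05 there were 5 genes, all lower in Aged+CF (3 large, 2 small), against 8.27% of all genes in that direction. The median log2 fold change was -0.22 for either subunit, 74 of the 78 values were below 0, against 52.6% of all genes, and the median of all genes was -0.02. With library totals both medians were -0.12 and that of all genes 0.07. This comparison uses the same 3 Aged ovaries as Aged vs Control, so a high or low Aged ovary enters both with opposite sign. The groups' ranges did not overlap for 5 genes, all lower in Aged+CF, against 8.39% of all genes in that direction.

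Mrpl4, the homologue of bacterial L4 near the exit tunnel, had 64.9, 74.1 and 63.4 CPM in Aged and 58.4, 55.4 and 55.2 CPM in Aged+CF, so that these groups did not overlap. Its log2 fold change was -0.26 ± 0.091 (edgeR adjusted p = 0.22), and its Control ovaries, at 58.8 to 64.8 CPM, lay above those of Aged+CF and overlapped those of Aged. Mrps25, a small subunit protein, had 90.1, 84 and 85.1 CPM in Aged and 79.1, 64.4 and 75.1 CPM in Aged+CF. It was the 1 gene not higher in Aged replicate 33 than the mean of the other Aged ovaries, and its log2 fold change was -0.25 ± 0.093 (adjusted p = 0.246, edgeR). Mrpl16, the homologue of bacterial L16, had 26.7, 32 and 23.6 CPM in Aged and 20, 21.6 and 23.5 CPM in Aged+CF. These ranges were separated by 1 pair of nearly equal ovaries, and the log2 fold change was -0.34 ± 0.14 (adjusted p = 0.272, edgeR). The largest difference was that of Mrpl36, at -0.5 ± 0.18 (adjusted p = 0.227, edgeR). It had 41.8, 53.2 and 31.9 CPM in Aged and 28.4, 29.5 and 31.9 CPM in Aged+CF, and exons of Ndufs6, on the opposite strand, overlap its own. The values of Mrps7 were 52.9, 55.3 and 52 CPM in Aged+CF, all within the Control range, with a log2 fold change of -0.46 ± 0.2 against Aged (adjusted p = 0.284, edgeR).

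The values of Mrpl53 and Mrpl58, the latter an enzyme that releases stalled peptides, were -0.48 ± 0.31 and -0.47 ± 0.27. Without Aged replicate 33 they were -0.22 and -0.06, and without Aged+CF replicate 34 that of Mrpl53 was -0.23 and that of Mrpl58 -0.48. The 4 genes above 0 were Mrps9 at 0.16 ± 0.13, Mrps5 at 0.11 ± 0.11, Mrpl2 at 0.09 ± 0.22 and Mrpl9 at 0.02 ± 0.13, and none had an unadjusted p under 0.05. Without Aged replicate 34, Mrps7 (log2 fold change -0.68, edgeR adjusted p = 0.041) and Mrpl36 (-0.68, edgeR adjusted p = 0.0431) fell, against 2.48% of all genes in that direction, and 37 genes were lower at an unadjusted p under 0.05, against 13% of all genes. Without Aged replicate 33, edgeR called 0 of the 78 genes and 0.0306% of all genes, and 2 were lower at an unadjusted p under 0.05, against 6.76%. The medians were then -0.02 and -0.03, and 43 of the 78 values were below 0, against 52.4% of all genes.

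**Figure D5:**
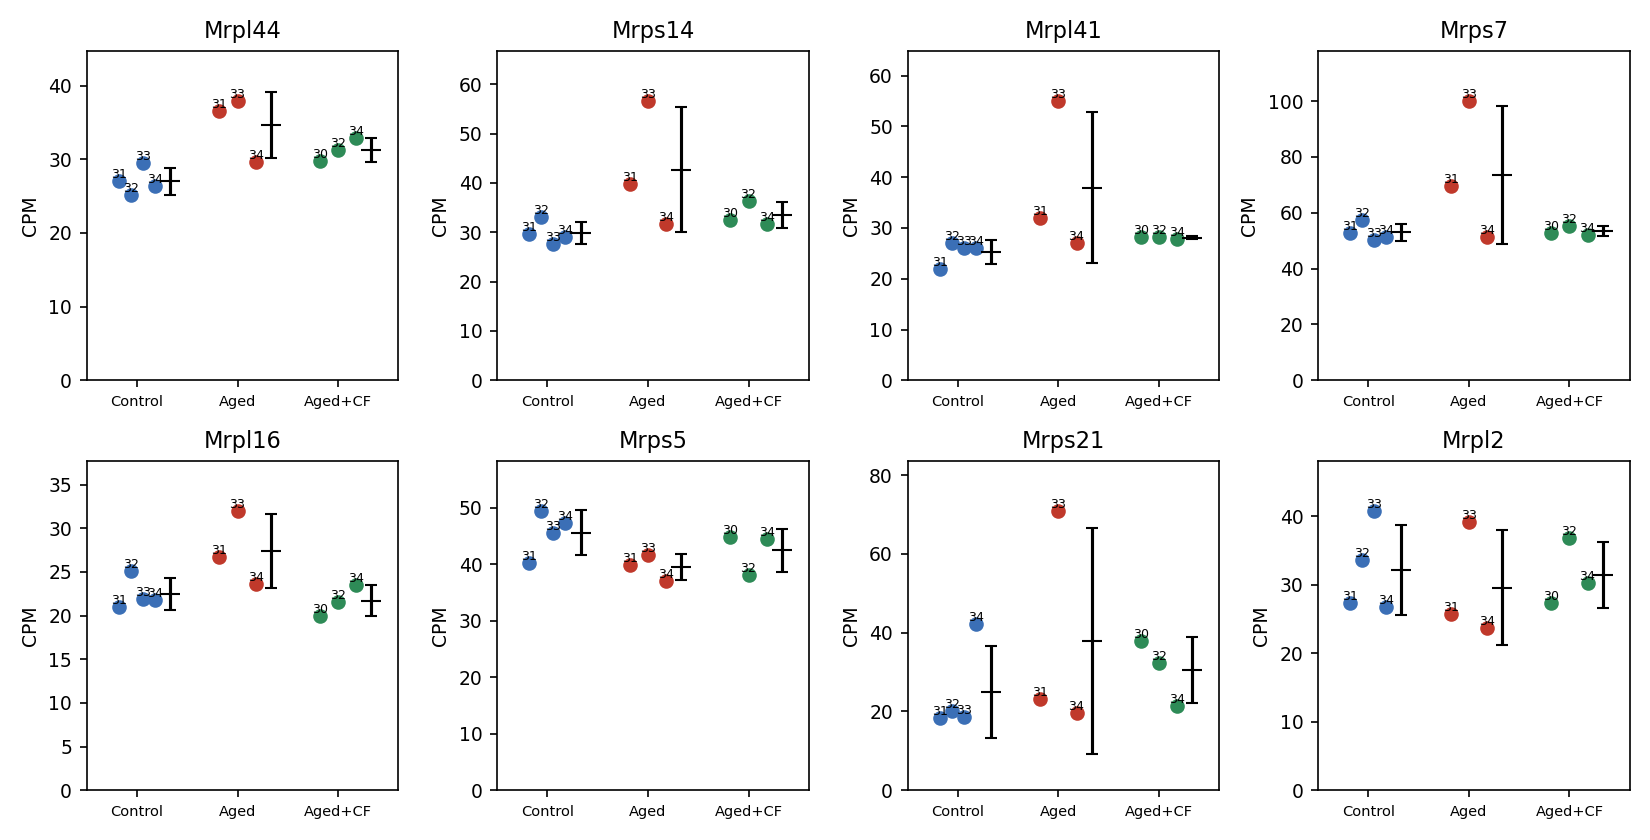
Levels in CPM of 8 genes in each ovary, with the replicate number over each point and the mean ± SD (n = 4, 3 and 3) at the side. In Mrpl44, Mrps14, Mrpl41, Mrps7 and Mrpl16 Aged replicate 33 is the highest ovary and Aged replicate 34 lies near Control, Mrps5 is lowest in Aged replicate 34, and Mrps21 and Mrpl2 spread widely within the groups.

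In Aged+CF vs Control, the genes lay close together. edgeR called 0 of the 78 genes, as did DESeq2 and limma. Of all genes, edgeR called 0.179%, DESeq2 3.88% and limma 3.52%. At an unadjusted p under 0.05 Mrps2 and Mrps35 of the small subunit were lower in Aged+CF, against 7.89% of all genes in that direction. The median log2 fold change was -0.07 for either subunit, with 27 of the 78 values above 0, against 45.9% of all genes, and a median of -0.03 over all genes. Mrps2, the homologue of bacterial S2, had 40.3, 43.9, 39.6 and 43.3 CPM in Control and 36, 33.8 and 37.5 CPM in Aged+CF, with no overlap. Its log2 fold change was -0.22 ± 0.091 (edgeR adjusted p = 0.313). Mrps35 had 31.2, 32.3, 29.6 and 36 CPM in Control and 28.6, 26.9 and 26.9 CPM in Aged+CF, with no overlap either, and a log2 fold change of -0.23 ± 0.1 (adjusted p = 0.332, edgeR). The largest differences were those of Mrpl33 (0.41 ± 0.22), Mrps21 (0.29 ± 0.47) and Mrps23 (0.24 ± 0.28) among higher values, and of Mrps6 (-0.42 ± 0.2), Mrps36 (-0.33 ± 0.21) and Mrps34 (-0.28 ± 0.23) among lower ones. The product of Mrps36 has been found with the oxoglutarate dehydrogenase complex, not in the ribosome. Group ranges did not overlap for 16 genes, 12 of them lower in Aged+CF, against 21.9% of all genes in either direction.

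Other genes were named for their roles. The paralogs Mrps18a, Mrps18b and Mrps18c are all homologues of bacterial S18, and in structures of the mitochondrial ribosome the product of Mrps18a sits in the large subunit, as does that of Mrps30. Mrps18a had 34.9, 36.8, 33 and 34.5 CPM in the Control ovaries, 38.3, 59.8 and 37.3 CPM in those of Aged, and 36.7, 36.9 and 37.7 CPM in Aged+CF. Its Aged and Control ovaries did not overlap, and its log2 fold change of 0.37 ± 0.15 in Aged vs Control did not pass the test (edgeR adjusted p = 0.128). Mrps18c had a value of 0.37 ± 0.18 and Mrps18b one of 0.01 ± 0.17 in that comparison, and the difference between the paralogs was not tested. Variants of MRPS7, MRPS22 and MRPL50 in people are known to go with ovarian insufficiency. Mrps22 had a level of 18.7 to 24.6 CPM in the Control ovaries, 15.9 to 25.5 CPM in the Aged ones and 18.7 to 21.5 CPM after CEFFE, and its log2 fold change in Aged vs Control was -0.02 ± 0.17 (adjusted p = 0.941, edgeR), with a 95% interval from -0.4 to 0.35. Mrpl50 had 34.2 to 37.2 CPM in Control and 47.8, 55.2 and 34.9 CPM in Aged, and its value was 0.35 ± 0.14 (adjusted p = 0.123, edgeR). Mrpl12, which also acts in mitochondrial transcription, was at 0.02 ± 0.18, with 45.4 to 82 CPM in Aged around the 53 to 64.1 CPM of Control.

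Mrps21, the homologue of bacterial S21, varied most. Its counts were 313, 324, 367 and 798 in the Control ovaries, 387, 1005 and 356 reads in the Aged ones, and 659, 562 and 457 reads after CEFFE. Control replicate 34 and Aged replicate 33 were each at least double the other ovaries of their group, and the coefficient of variation over the 10 ovaries was 54.5%, with a 3.88-fold range. The log2 fold change of 0.6 ± 0.47 in Aged vs Control (edgeR adjusted p = 0.415) became -0.19 without Aged replicate 33.

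Some of these genes start close to a neighbour on the opposite strand. A protein-coding neighbour on the opposite strand started within 1000 bases upstream for 18 of the 78 genes (23.1%), against 6.79% of the 21951 protein-coding genes of GENCODE M21. Pairs whose starts overlap are not in this count. Among the neighbours, Ncapd2, a condensin subunit that starts 100 bases from Mrpl51, fell in Aged vs Control from 103 to 42.1 CPM (log2 fold change -1.29 ± 0.18, edgeR adjusted p = 0.00497), while Mrpl51 had 49.5 CPM in Control and 69.8 CPM in Aged (0.5 ± 0.21, adjusted p = 0.14). Ska3, a kinetochore protein 49 bases from Mrpl57, fell by 1.44 on the log2 scale (adjusted p = 0.0148, edgeR), with 0.3 ± 0.17 for Mrpl57. Hira, next to Mrpl40, fell by 0.45 (adjusted p = 0.0237, edgeR) and Helq, next to Mrps18c, by 0.52 (adjusted p = 0.0261, edgeR), with 0.31 ± 0.16 and 0.37 ± 0.18 for the ribosomal genes. For the other 14 pairs neither gene was called. These pairs were named because the neighbour was called, and 0 of the 78 genes were called in this fit, so this contrast was fixed by the choice of pairs. Of all genes tested, 8.3% were called lower. The difference within a pair was not tested. Exons of 28 of the 78 genes overlap those of a gene on the opposite strand, among them Mrpl44 (Wdfy1) and Mrps7 (Gga3 and Mif4gd), and exons of 8 overlap a gene on the same strand, and reads in these stretches may belong to either gene.

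Other lists of mitochondrial genes give the setting. Of the 13 proteins encoded by mitochondrial DNA, which the mitochondrial ribosome makes, 7 rose in Aged vs Control (adjusted p under 0.05, edgeR) and all 13 values were above 0, with a median log2 fold change of 0.76. Their summed level was 25721 to 30510 CPM in Control and 40340, 68266 and 35538 CPM in Aged replicates 31, 33 and 34, so that Aged replicate 33 was highest here too, but all Aged ovaries lay above Control. mt-Nd2, a subunit of complex I, had the smallest p (1.23 ± 0.23, adjusted p = 0.0112, edgeR). In Aged+CF vs Aged the median was -0.59 with 0 called and 9 at an unadjusted p under 0.05, all lower. Of 79 nuclear genes for respiratory chain subunits 3 rose, and 7.14% of all genes did. Their median was 0.33, with a summed level of 7017 to 8106 CPM in Control and 8350, 12246 and 7329 CPM in Aged replicates 31, 33 and 34, so that Aged replicate 34 lay within the Control range and replicate 33 far above it. Of 86 cytosolic ribosomal protein genes 0 were called in Aged vs Control (1 at an unadjusted p under 0.05) and the median was -0.02, although Aged replicate 33, at 28233 CPM, was the highest ovary for these as well. Among 25 genes of mitoribosome assembly Trmt2b rose (0.43 ± 0.088, adjusted p = 0.0137, edgeR), and among 14 translation factors Mtif3, an initiation factor, rose (0.51 ± 0.14, adjusted p = 0.0353, edgeR). Of 20 genes of mitochondrial aminoacyl-tRNA synthesis Vars2 fell (-0.32 ± 0.093, adjusted p = 0.0435, edgeR), and of 9 regulators of mitochondrial biogenesis Nrf1, which binds the NRF1 motif, fell from 25.8 to 19.4 CPM (-0.41 ± 0.11, adjusted p = 0.0361, edgeR). Since edgeR called 7.14% of all genes higher and 8.3% lower, 1 called gene in a list of 9 to 25 is no clear excess. Of the 5 ribosome subunits that bear other symbols and of 8 genes of mitochondrial transcription and replication, 0 were called, with 2 and 0 at an unadjusted p under 0.05. Of 10 genes tied to early ovarian failure 0 were called, with 4 at an unadjusted p under 0.05, 3 higher and 1 lower. In Aged vs Control 31.6% of all genes had an unadjusted p under 0.05 in edgeR, 15.7% higher and 15.9% lower. With so few genes, 4 of 10 is no clear excess over that share.

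The makeup of the ovaries differed as well, and in whole tissue fewer cells of a type and less RNA per cell cannot be told apart. Of 15 oocyte markers 12 fell in Aged vs Control, from a summed level of 480 to 662 CPM in Control to 139, 120 and 16.8 CPM in Aged replicates 31, 33 and 34. Of 9 luteal and theca markers 7 rose, with a summed level of 6768 to 12599 CPM in Control and 28735, 39607 and 16616 CPM in Aged. Another 1 of the 9 went the other way, with a log2 fold change of -1.38 at an unadjusted p under 0.05 in edgeR, without being called. Of all genes tested, edgeR called 7.14% higher and 8.3% lower in Aged. For luteal and theca markers the 3 Aged ovaries had the same order as for the mitochondrial ribosomal protein genes. They had it for the granulosa markers (4691, 5697 and 4026 CPM) and the endothelial markers (504, 571 and 434 CPM) too, but not for the oocyte or immune markers. An order of only 3 ovaries can easily match by chance. Of 9 immune markers 6 rose, and their summed level was highest in Aged replicate 34, at 485 CPM against 123 to 208 CPM in all other ovaries. Endothelial markers rose for 4 of 5 genes. Of 10 granulosa markers 0 were called, with 5 at an unadjusted p under 0.05, all lower, and of the 7 stromal, 6 oviduct and 5 adipocyte markers 0 were called, with 0 at that p. Oviduct markers were high in Aged replicate 34 (312 CPM) and Control replicate 33 (402 CPM) and at most 33.8 CPM elsewhere. The part of cell makeup in the levels of the mitochondrial ribosomal protein genes was not tested as a cause. With the mean level of the oocyte markers as a covariate, the medians in Aged vs Control were 0.5 for either subunit and -0.02 over all genes. Higher values at an unadjusted p under 0.05 were found for 34 of the 78 genes and 13.1% of all genes, and edgeR called 0 of the 78 and 2.56% of all genes. The summed level of the oocyte markers did not overlap between Control and Aged ovaries, so this fit cannot separate the covariate from age. Its values are therefore no estimate of a difference apart from oocyte content.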

How the data were processed

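RNA-seq of 10 ovaries (4 Control, 3 Aged and 3 Aged+CF), grouped and numbered by the sample titles, was used. The values deposited for each ovary were raw counts of reads by gene and FPKM, which the authors made, per the submitters' processing notes, with TopHat (version not given in the sources used here) and Cufflinks 2.1.1 on GRCm38.p4. The counting tool and its use of strand are not given in the sources used here. Total counts were 15761789 to 21318254 per ovary, and pairs of libraries of a group were checked for duplication, with none found. Mitochondrial ribosomal protein genes were found by symbol, and their positions, exon lengths and overlaps come from GENCODE M21 on GRCm38. The deposited FPKM served only to compare levels of different genes.

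Counts were filtered by edgeR's rule with the groups as design, scaled by TMM and fitted for all 10 ovaries with the quasi-likelihood method of edgeR 4.0 in R 4.3. The 3 comparisons were tested over 18956 genes with Benjamini-Hochberg adjustment, and a gene was called at an adjusted p under 0.05 without a fold limit. The thresholds in the series' description, a fold of at least 1.5 and an unadjusted p under 0.05, were also applied. CPM values use TMM library sizes, and log2 CPM a prior count of 2. The study's methods call the libraries biological replicates, the labels do not tie each to a mouse, and p-values measure the spread between these libraries. The fit was tested on simulated counts with known changes.

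Genes were named by rule: the 3 largest and 3 smallest log2 fold changes of each comparison, the 3 highest and lowest FPKM of each subunit, the Mrps18 paralogs, Mrpl12, Mrps7, Mrps22 and Mrpl50. The genes with an unadjusted p under 0.05, the neighbours and Mrps25 were named after their values were seen. The members and lists, written from general knowledge, were chosen with earlier results of these data known. The alternatives were no filter, DESeq2 size factors, the Wald test of DESeq2 1.42, only the compared groups, the replicate number as a block, the oocyte marker level as a covariate and leaving out each ovary, and, after the data were seen, library totals without TMM and voom with quality weights in limma 3.58.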

Additional observations from a re-analysis of the deposited data

Results flagged for a closer look

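In the Control group, whose 4 ovaries allow a check for a lone ovary, 33 values were tested and 2 stood apart. The level of Mrps21 was 42.3 CPM in Control replicate 34 and 18.3 to 20.2 CPM in the other 3. The level of Mrps36 was 11.7 CPM in Control replicate 34 and 8.04 to 8.35 CPM in the others. Chance alone sets apart about 1 in 20 such groups, so 2 of 33 is about what chance gives, and no cause was tested.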

How the results depend on the processing

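Precision was limited by 3 or 4 ovaries per group and by the distance of Aged replicates 33 and 34 from each other, more than by depth, since no gene of the 78 had fewer than 71 counts in an ovary. In Aged vs Control, 0 of the 78 genes were called with edgeR, 1 with DESeq2 size factors (Mrpl44), 3 with DESeq2's Wald test, 1 with library totals without TMM (Mrps5, lower) and 5 with quality weights in limma, where Aged replicates 33 and 34 had the lowest weights (0.327 and 0.276). Past the thresholds in the series' description, 2 genes became 1 with the replicate block, 32 with the oocyte marker covariate, and 0 with library totals or quality weights. In the main edgeR fit 18.2% of all genes passed these thresholds. With the covariate, which cannot be separated from age here, 25.9% of all genes had an unadjusted p under 0.05 at any fold. That rule is looser than the thresholds behind the 32. At any fold, 34 of the 78 genes were higher at that p with the covariate, against 13.1% of all genes. Where no share of all genes past the thresholds is given for a setting, its count cannot be read as an excess over the background. Leaving out 1 ovary gave 0 to 18 called genes and 0 to 10 past these thresholds, with 18 and 10 without Aged replicate 34, 5 past them without Aged replicate 31, and 0 without Aged replicate 33 or Control replicate 31. Without Aged replicate 34, 22.3% of all genes were called, and 12.8% of the 78 genes and 22.1% of all genes passed these thresholds. Without Aged replicate 33, 17.2% of all genes passed them. In Aged+CF vs Aged the leave-one-out ranges were 0 to 2 and 0 to 11, both highest without Aged replicate 34, with 1 past the thresholds without Aged replicate 31. Without Aged replicate 34, 3.36% of all genes were called, and 14.1% of the 78 genes and 12.2% of all genes passed the thresholds. The covariate gave 19 and quality weights 1 past them. With the covariate 22.1% of all genes had an unadjusted p under 0.05 at any fold, a looser rule than that behind the 19. In Aged+CF vs Control the covariate gave 1. It also moved the medians of both subunits to 0.5 in Aged vs Control, that of the small subunit to -0.47 in Aged+CF vs Aged, and those of the large and small subunits to 0.1 and 0.13 in Aged+CF vs Control. With the covariate the signs of Mrps30 (0.14) and Mrps34 (0.41) in Aged vs Control and of Mrps9 (-0.04), Mrps5 (0) and Mrpl2 (-0.08) in Aged+CF vs Aged changed. Leaving out an ovary changed the sign of Mrps21 in Aged vs Control (-0.19 to 0.99) and of Mrpl2 in Aged+CF vs Aged (-0.06 to 0.35, with -0.01, -0.06 and -0.03 without Aged replicates 31 and 34 and Aged+CF replicate 32). The cause was not tested. The replicate numbers did not pair the ovaries (correlations of deviations between same-numbered ovaries -0.18 to 0.15). With the replicate block 0 of the 78 genes were called in any comparison, but at most 0.422% of all genes were called in any 1 of them. A count of 0 of 78 under this block is therefore no feature of these genes. The medians with the block were 0.11 and 0.1 in Aged vs Control.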
